A study of Mus musculus with 6 samples.

Results

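The ADAMTS proteases are secreted zinc metalloproteases with thrombospondin repeats. Here 10 of their genes were examined in cultured mouse aortic cells, labelled as endothelial and as ERK1/2 null or ERK1/2 wild type. The members were chosen by gene name, from a list drawn up with earlier results of these data known. Of the 10, the platform annotation gave 6 a probe set row of their own among 14860 measured genes (Adamts1, Adamts4, Adamts5, Adamts7, Adamts10 and Adamts12). Each had 1 such row, so the rule that takes the row with the highest mean level over the 6 arrays made no choice here. Adamts2, Adamts6, Adamts9 and Adamts15 were not analysed here.

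ADAMTS enzymes are made as inactive proenzymes, are trimmed by furin-like convertases, and cut proteoglycans, procollagens and other matrix proteins outside the cell. The aggrecanases of the family cleave aggrecan and versican, which fill the space between cells with water-binding sugar chains, and versican turnover accompanies remodelling of the arterial wall. ERK1 and ERK2 are the kinases that pass growth factor signals from receptors to the nucleus.

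Cells came from the aorta of 4 week old mice on a C57/BL6 background (5 generations) and grew with 20% FBS, heparin and endothelial growth supplement. The ERK1/2 null cultures (3 arrays) received a lentivirus with Cre, and the wild type cultures (3 arrays) a lentivirus with green fluorescent protein. The genotype label gives Erk1-/- and Erk2 fl/fl for both groups, so by that label the cultures called wild type also lacked Erk1. By the labels the groups differed in the lentivirus they received and in the loss of Erk2 that Cre is meant to bring. Null replicate 1 is labelled egfp-Cre by genotype and replicates 2 and 3 Cre, while the source label says egfp-Cre for all 3. The titles call the arrays biological replicates, and no label says whether cultures shared an animal. If they did, the p-values measure only the spread between these samples. Neither targeted kinase was analysed here, so the labels were not checked by the deleted gene.

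The name endothelial comes from the labels, and most markers that define endothelial cells were dim. Of 18 endothelial markers, 13 lay in the dimmest 33.3% of genes, among them Pecam1 (3.44 to 4.20 over the 6 arrays, log2), Cdh5 (3.32 to 4.499), Kdr and Vwf, while Eng stood at 8.93 to 10.02. Of 12 fibroblast markers, 2 lay in that range. The mean log2 level of the fibroblast list ran from 7.51 to 8.14 in wild type and from 8.44 to 10.10 in null arrays. The smooth muscle list (11 measured) ran from 5.68 to 6.20 and from 6.38 to 6.86. The macrophage list (9 measured) stayed between 3.70 and 4.11 on all arrays. In cultures measured in bulk, fewer cells of a type and less RNA per cell cannot be told apart. The first principal component separated the groups (49.6% of the variance) and the second (26.0%) set replicate 1 of both groups apart from the others. Arrays of equal number deviated together from their group means, so a fit with the replicate number as a block is given where it changed a call.

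The comparison asked which of these genes differ in RNA level between the groups. Adamts5 and Adamts1 rose in ERK1/2 null cultures, 15.8-fold and 6.31-fold, and the other 4 members did not pass the test. Each gene was tested with limma over all 14860 genes, and a call needed a Benjamini-Hochberg adjusted p under 0.05. In the table as a whole 11.5% of genes were called, 5.35% higher and 6.12% lower in ERK1/2 null, beside 2 of 6 members called higher and none lower. At an unadjusted p under 0.05 the members also numbered 2 higher and 0 lower. The share of all genes at that threshold is not given here, so this count and those of later lists have no comparison. With the replicate block 8.92% of genes were called higher and 7.76% lower, beside 3 of 6 members higher and none lower. The same shares of all genes are the comparison for the calls in the lists below. The median log2 difference was 0.56 over the 6 members and 0.02 over all genes. Since the members were named with results known, these counts describe the family and are not independent evidence about it.

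Adamts5 encodes the main aggrecanase of mouse cartilage. Its levels were 10.93, 11.42 and 10.90 on the log2 scale in null replicates 1, 2 and 3, and 7.90, 7.15 and 6.27 in wild type replicates 1, 2 and 3. The null arrays lay close together and far above every wild type array, and the wild type arrays were spread over a wider range. The log2 difference was 3.98 (SE 0.41, 95% interval 2.99 to 4.96, limma adjusted p = 0.0036), from 7.11 ± 0.82 to 11.08 ± 0.29 (SD, n = 3 each). Within replicate numbers 1, 2 and 3 it was 3.03, 4.27 and 4.63. Among the 795 genes called higher, 9 had a larger difference.

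Adamts1 encodes a protease that cleaves versican and aggrecan and is known from studies of ovulation and of vessel growth. Its levels were 11.47, 11.68 and 11.04 in null replicates 1, 2 and 3, and 9.39, 8.44 and 8.38 in wild type replicates 1, 2 and 3. All null arrays were above all wild type arrays, as they were for 16.5% of all genes in this direction. The log2 difference was 2.66 (SE 0.31, 95% interval 1.90 to 3.42, limma adjusted p = 0.0053), from 8.74 ± 0.57 to 11.39 ± 0.33 (SD, n = 3 each), and 2.07, 3.24 and 2.66 within the pairs. Among genes called higher, 48 had a larger difference.

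Both calls held in each of the 6 fits that left out an array, with adjusted p of 0.0062 to 0.022 for Adamts5 and 0.0062 to 0.028 for Adamts1. The difference of Adamts5 exceeded that of Adamts1 by 1.32 on the log2 scale. Read per array, log2 Adamts5 minus log2 Adamts1 was −0.54, −0.26 and −0.14 in null and −1.49, −1.29 and −2.11 in wild type, without overlap. An exact two-sided permutation test gave p = 0.1, the smallest this test can give with 3 arrays against 3, so it could not reach 0.05. The value was higher in null within 3 of 3 pairs. Adamts5 and Adamts1 were compared as the 2 members called, with results known, so the contrast is a description only.

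Adamts1 and Adamts5 are next to each other among the protein-coding genes of the mouse assembly GRCm38.p6. The protein-coding genes on either side of the pair, chosen after the values were seen, were not called. Cyyr1, beside Adamts1, had a log2 difference of −0.16 (SE 0.12, limma adjusted p = 0.49), and N6amt1, beside Adamts5, one of 0.20 (SE 0.11, limma adjusted p = 0.33).

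**Figure D1:**
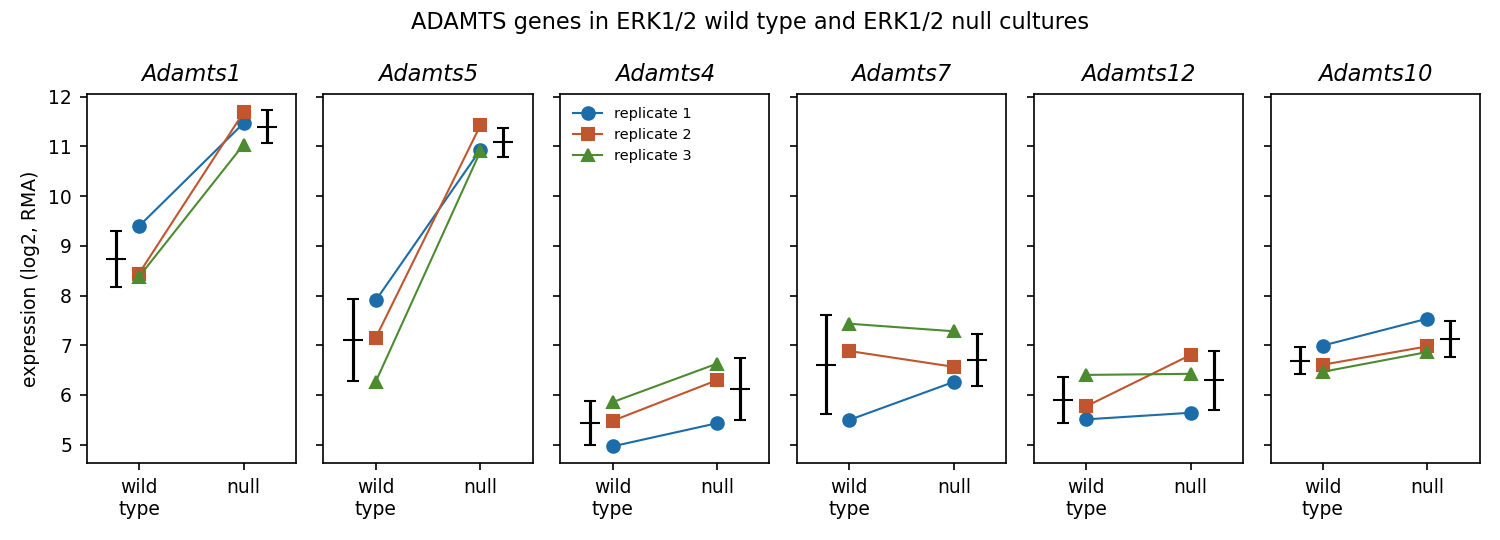
Log2 expression of the 6 measured ADAMTS genes on each array, wild type on the left and ERK1/2 null on the right of each panel, with arrays of equal replicate number joined and the group mean ± SD (n = 3) in black. Adamts1 and Adamts5 have every null array above every wild type array, and the other 4 genes overlap between groups.

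Promoter sequences are shown for the genes that rose and had one in the RefSeq promoter table (Adamts1 and the protease-free relatives Adamtsl4 and Adamtsl5) and for Adamts12, a member that was not called. The table held 2 of the 6 measured members, and Adamts5 was not among them. Each sequence runs 5′ to 3′ from 250 bases before to 50 bases after the gene start, in build GRCm38.p6. Capitals mark matches, on either strand, to the letters of a TATA box (TATAAA), a GC box (GGGCGG, bound by Sp1-type factors), an AP-1 site (TGANTCA) and an ETS site (CCGGAAG). The Adamts1 promoter lies at chr16:85803064-85803363 on the minus strand.
Adamts1: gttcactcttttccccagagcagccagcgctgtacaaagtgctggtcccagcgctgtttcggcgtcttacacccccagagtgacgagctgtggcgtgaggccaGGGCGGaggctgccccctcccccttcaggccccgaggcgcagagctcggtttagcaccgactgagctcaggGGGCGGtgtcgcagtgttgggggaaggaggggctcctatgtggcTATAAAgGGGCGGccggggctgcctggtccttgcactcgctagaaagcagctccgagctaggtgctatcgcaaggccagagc
The Adamtsl4 promoter lies at chr3:95687868-95688167 on the minus strand.
Adamtsl4: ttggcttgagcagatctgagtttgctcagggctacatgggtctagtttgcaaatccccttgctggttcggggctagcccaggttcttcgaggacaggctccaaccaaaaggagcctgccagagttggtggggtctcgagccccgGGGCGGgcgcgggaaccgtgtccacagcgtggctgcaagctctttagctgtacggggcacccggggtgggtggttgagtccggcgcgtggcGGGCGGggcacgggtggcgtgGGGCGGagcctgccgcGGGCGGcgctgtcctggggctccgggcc
The Adamtsl5 promoter lies at chr10:80348399-80348698 on the minus strand.
Adamtsl5: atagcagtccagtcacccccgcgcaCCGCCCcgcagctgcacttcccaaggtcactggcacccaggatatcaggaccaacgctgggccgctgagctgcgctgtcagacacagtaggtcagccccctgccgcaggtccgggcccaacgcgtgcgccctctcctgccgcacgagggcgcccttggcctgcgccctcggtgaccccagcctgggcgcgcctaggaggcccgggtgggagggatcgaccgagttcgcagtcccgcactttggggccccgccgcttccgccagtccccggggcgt
The Adamts12 promoter lies at chr15:11064523-11064822 on the plus strand.
Adamts12: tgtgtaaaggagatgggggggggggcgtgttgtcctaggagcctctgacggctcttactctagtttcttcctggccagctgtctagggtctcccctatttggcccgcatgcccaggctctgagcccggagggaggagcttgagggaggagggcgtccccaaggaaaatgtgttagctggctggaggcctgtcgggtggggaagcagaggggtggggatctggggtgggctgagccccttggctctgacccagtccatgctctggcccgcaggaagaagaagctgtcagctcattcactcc

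The Adamts1 promoter held 1 TATAAA match, which begins 32 bases before the gene start, and 3 GC boxes, the last of them separated from it by 1 base. Of 32851 promoters of the same length, 13.6% held TATAAA and 35.7% at least 1 GC box, and 10.7% held 3 or more GC boxes. Adamtsl4 held 4 GC boxes and Adamtsl5 held 1, both without TATAAA, and Adamts12 held none of the 4 motifs. TGANTCA and CCGGAAG, present in 7.81% and 8.86% of promoters, were in none of the 4 windows. A match is a description of the letters and says nothing of binding in these cells.

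Adamts4, the second classical aggrecanase, was higher in null within every pair by less than 1 log2 unit. Its levels were 5.43, 6.30 and 6.63 in null and 4.97, 5.48 and 5.85 in wild type replicates 1, 2 and 3. Replicate 1 was lowest and replicate 3 highest in both groups, so the groups overlapped although each pair differed one way (0.47, 0.82 and 0.78). The log2 difference was 0.69 (SE 0.36, 95% interval −0.18 to 1.56, limma adjusted p = 0.30). With the replicate block Adamts4 was called higher (limma adjusted p = 0.027). That call held without pair 1 (0.034) and was lost without pair 2 (0.13) or pair 3 (0.12).

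Adamts10 encodes a protease that binds fibrillin microfibrils and is mutated in a human short-stature syndrome. Its levels were 7.53, 6.98 and 6.86 in null and 6.99, 6.61 and 6.47 in wild type. Here replicate 1 was the highest of each group, the opposite order to Adamts4. The log2 difference was 0.44 (95% interval −0.11 to 0.98, limma adjusted p = 0.30, and 0.064 with the block), and each pair was higher in null, by 0.37 to 0.54.

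Adamts7 and Adamts12 encode related proteases with long mucin-like regions, reported to cleave cartilage oligomeric matrix protein, and ADAMTS7 is linked to coronary disease in human genetics. Adamts12 stood at 5.64, 6.81 and 6.42 in null and 5.51, 5.77 and 6.40 in wild type. Its log2 difference of 0.40 (95% interval −0.46 to 1.25, limma adjusted p = 0.56) came largely from pair 2 (1.04, against 0.13 and 0.02 in pairs 1 and 3). Adamts7 stood at 6.26, 6.57 and 7.28 in null and 5.50, 6.88 and 7.43 in wild type. It was higher in null in pair 1 (0.77) and lower in pairs 2 and 3 (−0.32 and −0.15), with a log2 difference of 0.10 (95% interval −1.16 to 1.36, limma adjusted p = 0.94). These intervals include changes of over 2-fold upward for both genes, and downward for Adamts7.

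Within pairs, 5 of 6 members were higher in null in all 3, and so were 28.3% of all genes. For the 4 members that did not pass, the range within each group exceeded the group difference. Adamts4, Adamts7 and Adamts12 were lowest in replicate 1 of both groups. The levels of different genes come from different probe sets and give no ranking of their transcripts.

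Beyond the 10, 6 further family genes had a row (Adamts8, Adamts13, Adamts16, Adamts18, Adamts19 and Adamts20), and none rose or fell in limma, with or without the block; 0 had an unadjusted p under 0.05. Their median log2 difference was −0.01, and 4 of them lay in the dimmest 33.3% of genes, where RMA compresses changes. Adamts20, known for its role in mouse pigment cells, stood at 3.25 to 3.34 on all 6 arrays. Adamts13, which cleaves von Willebrand factor, stood at 4.65, 4.65 and 4.86 in null and 4.58, 4.58 and 4.62 in wild type (log2 difference 0.13, limma adjusted p = 0.54). Adamts8, the gene with the lowest p among them, stood at 4.94, 4.98 and 4.98 in null and 5.08, 5.39 and 6.38 in wild type. All its null arrays lay below all wild type arrays, and wild type replicate 3 alone was well above the rest (log2 difference −0.65, SE 0.32, limma adjusted p = 0.27).

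ADAMTS-like proteins share the ancillary domains of the family without the protease domain, and several bind fibrillin microfibrils. Of 5 measured, 2 rose and none fell in limma (0 lower at an unadjusted p under 0.05). The median log2 difference, 0.77, was the value of Adamtsl2, described below. Adamtsl4, mutated in human lens dislocation, stood at 9.03, 9.73 and 9.47 in null and 8.46, 7.81 and 7.52 in wild type (log2 difference 1.48, SE 0.29, limma adjusted p = 0.024). Adamtsl5, a fibrillin-binding protein, stood at 8.93, 9.51 and 8.57 in null and 7.51, 7.98 and 7.20 in wild type (log2 difference 1.44, SE 0.30, limma adjusted p = 0.029). Groups did not overlap for either gene. Each call was lost in 4 of 6 fits without an array, with adjusted p up to 0.086 for Adamtsl4 (without null replicate 2) and 0.094 for Adamtsl5 (without wild type replicate 3). Adamtsl2 reached 6.23 in null replicate 3 and stayed between 4.18 and 4.62 on the other 5 arrays, so its difference of 0.77 came from 1 array (limma adjusted p = 0.35).

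**Figure D2:**
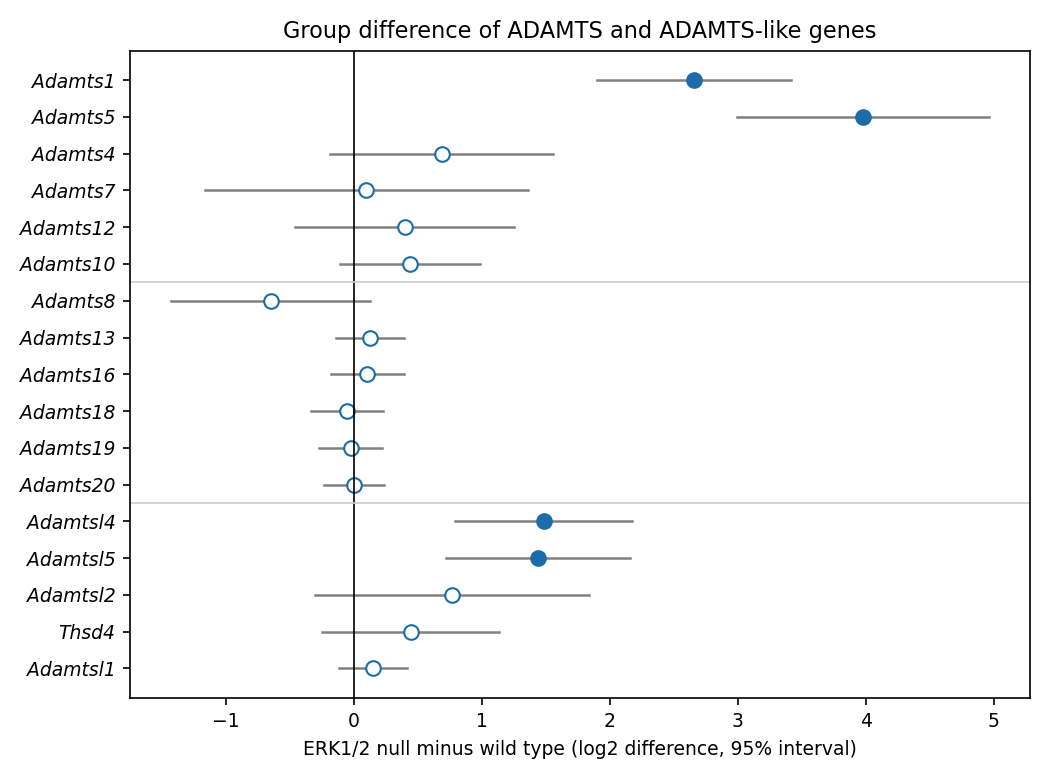
Log2 difference (ERK1/2 null minus wild type) with its 95% interval from limma for the 6 measured members (top), the 6 further ADAMTS genes (middle) and the 5 ADAMTS-like genes (bottom); filled points passed an adjusted p under 0.05. Adamts5 (3.98) and Adamts1 (2.66) lie apart from the remaining ADAMTS genes, which run from −0.65 to 0.69.

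Genes reported to encode ADAMTS substrates moved in both directions. Of 7 proteoglycan substrates, none rose or fell in limma, 1 was higher at an unadjusted p under 0.05, and the median log2 difference was 0.01. With the block 1 rose. Vcan, which encodes versican, stood at 10.36, 10.74 and 11.35 in null and 9.05, 11.01 and 10.78 in wild type, with overlap (log2 difference 0.53, limma adjusted p = 0.62). Acan, which encodes aggrecan, stood between 3.17 and 4.18 on all arrays, also in the dimmest 33.3% of genes. Bgn, which encodes biglycan, had the lowest p of the list (log2 difference 0.41, SE 0.12, limma adjusted p = 0.074). Dcn, which encodes decorin and also serves as a fibroblast marker, ranged from 7.70 to 13.14 in null and from 5.36 to 9.77 in wild type, and was called higher only with the block (log2 difference 4.07, limma adjusted p = 0.21, blocked 0.026).

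Of 13 other substrates, 3 rose and 1 fell, with a median of 0.45, and with the block 5 rose and 1 fell. The fibrillar procollagens are processed by Adamts2 and its relatives, which were not among the measured genes. Col3a1 rose by 2.17 (SE 0.27, limma adjusted p = 0.0059), and smaller increases were called for Col5a1 (log2 difference 1.15, limma adjusted p = 0.019) and Col1a2 (log2 difference 0.82, limma adjusted p = 0.036). Col2a1, the cartilage collagen gene, fell from 9.65 ± 0.20 to 7.78 ± 0.14 (SD, n = 3 each; log2 difference −1.87, SE 0.15, limma adjusted p = 0.0018). Col5a1 lost its call in 4 of 6 fits without an array (up to 0.078 without null replicate 2) and Col1a2 in 5 (up to 0.11 without null replicate 3), and Col1a2 also lost it when arrays were quantile normalized (0.071) or centred on their medians (0.066). Col1a1 and Ccn2 were called higher with the block (log2 differences 1.06 and 0.75, limma adjusted p = 0.059 and 0.30, blocked 0.015 and 0.047). Comp, the substrate named above, stood at 4.77 to 4.98 in null and 4.67 to 4.91 in wild type.

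Of 13 genes for inhibitors, activators and clearance, 3 rose and none fell in limma (0 lower at an unadjusted p under 0.05), with a median of 0.35. Reck, a membrane-anchored metalloprotease inhibitor, stood at 10.94, 10.05 and 9.996 in null and 8.94, 8.07 and 7.58 in wild type, without overlap (log2 difference 2.13, SE 0.41, limma adjusted p = 0.023). Timp2, a tissue inhibitor of metalloproteases, rose by 0.62 (SE 0.11, limma adjusted p = 0.020), and Sdc1, the heparan sulfate proteoglycan syndecan 1, rose by 0.96 (SE 0.17, limma adjusted p = 0.017). Timp3, the tissue inhibitor that acts on the aggrecanases, stood at 12.97, 12.39 and 12.44 in null and 12.36, 10.84 and 10.83 in wild type. Its null arrays were all above its wild type arrays, narrowly for null replicates 2 and 3 against wild type replicate 1. Timp3 was called higher with the block alone (log2 difference 1.25, limma adjusted p = 0.13, blocked 0.023). The convertase gene Furin (−0.26, limma adjusted p = 0.34) and Lrp1, the receptor that takes up several ADAMTS enzymes (0.47, limma adjusted p = 0.080), did not pass. In the 6 fits without an array, the call was lost in 4 for Reck, 5 for Timp2 and 4 for Sdc1. The limma adjusted p rose to 0.075 for Reck (without wild type replicate 2), 0.079 for Timp2 (without null replicate 2) and 0.066 for Sdc1 (without null replicate 2). Timp2 also reached 0.064 after quantile normalization.

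ADAM proteases are the membrane-bound relatives of the family. Of 11 measured, Adam15 rose (10.46 ± 0.29 against 9.30 ± 0.18, SD, n = 3 each; log2 difference 1.17, SE 0.18, limma adjusted p = 0.013). Its call was lost in 2 of 6 fits without an array (limma adjusted p up to 0.053 without null replicate 2). None fell in limma after adjustment and 2 were lower at an unadjusted p under 0.05, the median was 0.07, and Adam19 was called lower with the block (log2 difference −0.99, limma adjusted p = 0.077, blocked 0.015). Adam10, the widely expressed shedding protease, differed by 0.13 (limma adjusted p = 0.80).

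**Figure D3:**
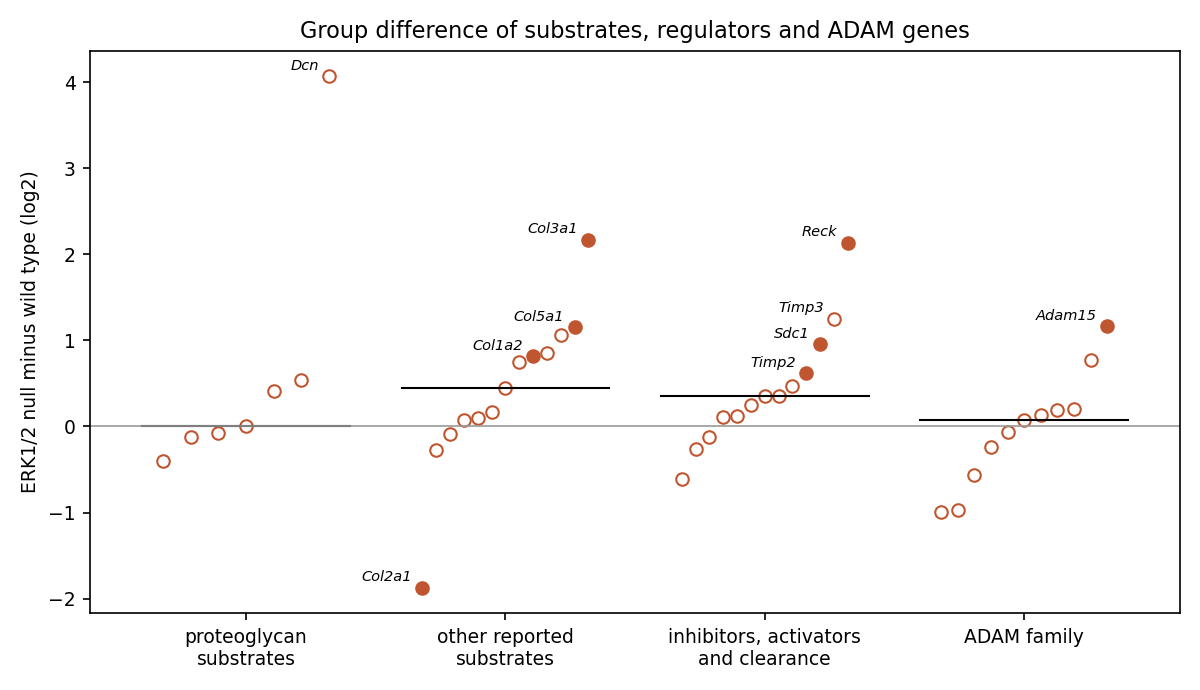
Log2 difference (ERK1/2 null minus wild type) of each measured gene in 4 lists, with filled points for an adjusted p under 0.05 and black bars for list medians. Col3a1 (2.17) and Reck (2.13) are the highest called genes, Col2a1 (−1.87) is the lowest, and Dcn (4.07) is the highest point without a call.

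Levels that moved with the group are given beside Adamts5 and Adamts1, and their part in the result was not tested. Of all genes, 5.35% were called higher without the block and 8.92% with it. Of 12 fibroblast markers 3 rose without the block (Mfap5, Col3a1 and Col1a2) and 9 with it, with a median of 1.39. Pdgfra was the 1 fibroblast marker with a negative difference (log2 difference −0.34, limma adjusted p = 0.74). Mfap5 lost its call in 4 of 6 fits without an array (limma adjusted p up to 0.15 without null replicate 2), whereas Col3a1 kept its call in each. Of 11 smooth muscle markers, Mylk rose without the block and 4 rose with it, and Mylk lost its call in 2 of 6 fits without an array (limma adjusted p up to 0.060 without null replicate 3). No endothelial marker of 18 was called in limma, 2 were higher at an unadjusted p under 0.05, and Erg and Flt1 rose with the block (adjusted p = 0.034 and 0.016). Of 7 mesothelial and epithelial markers, Upk3b rose (log2 difference 1.58, limma adjusted p = 0.027). Upk3b lost its call in 5 of 6 fits without an array (limma adjusted p up to 0.096 without null replicate 2). Of 9 macrophage markers 0 were called or had an unadjusted p under 0.05, and Cd14 rose with the block (adjusted p = 0.023). The fibroblast markers did not share 1 pattern over the arrays. For 7 of the 12, every null array lay above every wild type array (16.5% of all genes), and 10 of the 12 were higher in null within all 3 pairs (28.3% of all genes). Dpt, which encodes dermatopontin, stood at 10.04, 10.92 and 10.13 in null replicates 1, 2 and 3 and at 9.21, 6.55 and 5.25 in wild type, and Pdgfrb, a growth factor receptor gene, at 11.37, 11.33 and 11.02 and at 10.76, 9.67 and 9.12. Like Adamts5, and alone among the 12, these genes were highest in replicate 1 and lowest in replicate 3 of the wild type group. Dcn ran in the opposite order there (5.36, 6.05 and 9.77) and overlapped between groups (7.70, 12.55 and 13.14 in null). Lum, Col1a1, Mfap5, Thy1 and Fap also rose from wild type replicate 1 to replicate 3, as Dcn did. Dcn, Dpt and Pdgfrb were chosen after their values were seen. Dpt and Pdgfrb were called higher only with the block (limma adjusted p = 0.075 and 0.079, blocked 0.045 and 0.027). The share of all genes with either order over the wild type arrays was not computed, so these orders have no comparison.

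**Figure D4:**
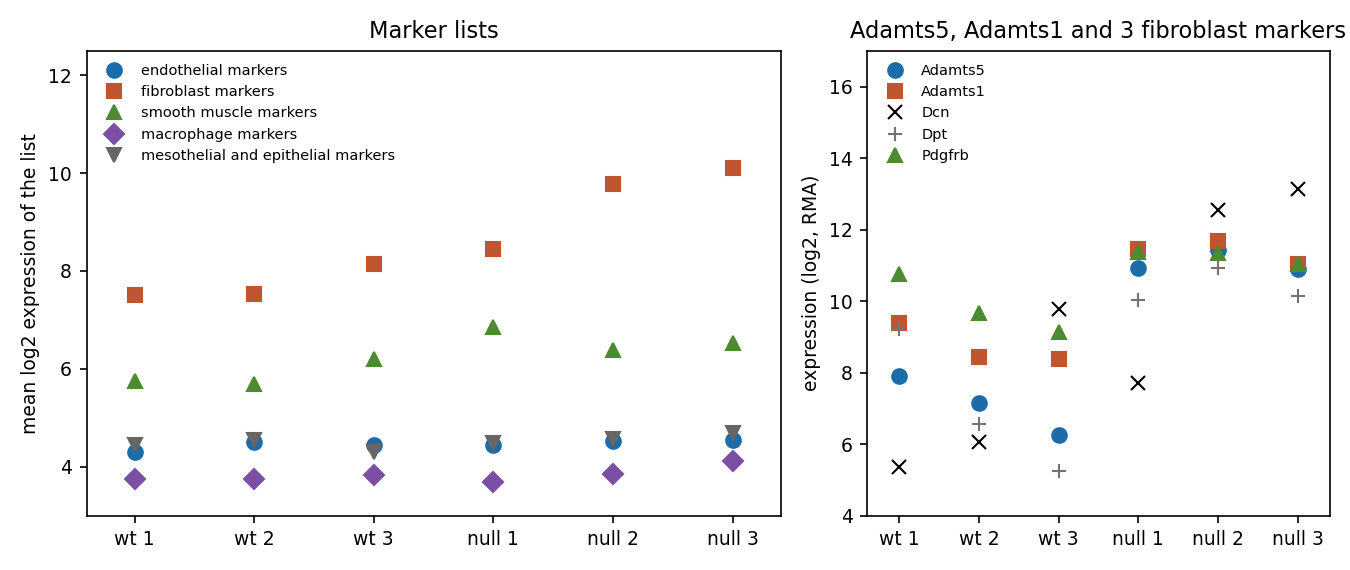
Left, mean log2 level of 5 marker lists on each array (wt, wild type); right, log2 levels of Adamts5, Adamts1 and the fibroblast markers Dcn, Dpt and Pdgfrb on the same arrays. Fibroblast means run from 7.51 to 8.14 in wild type and from 8.44 to 10.10 in null; Adamts5, Adamts1, Dpt and Pdgfrb have every null array above every wild type array, and Dcn overlaps.

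Over the whole table, the 5 genes whose profile across the 6 arrays came closest to that of Adamts5 were Ccn3, Fbln5, Serpina3n, Tmtc1 and Sfrp2. Likeness was the Euclidean distance between profiles centred on their own mean, which ran from 0.40 for Ccn3 to 1.201 for Sfrp2. Profiles were not scaled, so a gene with a much smaller group difference than Adamts5 is distant by construction. Ccn3 (formerly Nov) encodes a matricellular protein, Fbln5 an elastic fibre protein, Serpina3n a secreted protease inhibitor and Sfrp2 a secreted Wnt modulator, and Tmtc1 an enzyme of protein O-mannosylation. In the order first listed, their log2 differences were 3.87, 4.26, 3.44, 3.21 and 3.46 (limma adjusted p = 0.0059, 0.0014, 0.0019, 0.0039 and 0.022). Sfrp2 (SE 0.65) lost its call in 5 of 6 fits without an array (limma adjusted p up to 0.084 without null replicate 2). Ccn3, Fbln5, Serpina3n and Tmtc1 kept theirs in each. Adamts1 was the 17th closest of all other genes to Adamts5 (distance 1.75), and Adamts10, the next member, was the 2002nd (4.47).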

How the data were processed

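RNA was measured on 6 Affymetrix arrays, 3 per group. The deposited values are log2 expression per probe set row, made by the authors with RMA, per the submitters' processing notes, which give no version; values of 0.74 to 14.32, none missing, showed the log2 scale. RMA compresses changes of dim rows. Of 16775 rows, 14996 named 1 gene, 1019 several, and 760 were unlisted. The highest-mean row stood for each of 14860 genes. Groups came from titles. Each gene was tested with limma 3.58.1 (lmFit, eBayes) in R 4.3.3 over all genes, after the procedure was tested on simulated data. Exact tests used scipy 1.17.1 in Python 3.11.15. Members and 11 gene lists were chosen with earlier results of these data known. Named genes were all members and, per list, up to 3 called genes with the largest difference or the gene with the lowest p; further genes were named after their values were seen. No member was lower in ERK1/2 null, so similar patterns were sought for Adamts5 alone.

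Deviations from group means correlated across genes at 0.57, 0.35 and 0.45 for equal replicate numbers, and at 0.04 or lower otherwise. Equal numbers were treated as pairs on this ground; no label states the pairing. Alternatives were normalization, centring, a filter on dim genes, the variance model, array weights, the row rule, the replicate block, single arrays left out and a stricter threshold. The number of arrays limits the precision.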

Additional observations from a re-analysis of the deposited data

How the results depend on the processing

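Adamts5 and Adamts1 stayed higher and called in all 17 alternatives, at 3.56 to 4.45 and 2.37 to 2.99 on the log2 scale. The count of members called was 2 in each fit, apart from 3 with the replicate block and with the block without pair 1, where Adamts4 was added; Adamts10 and Adamts12 kept their direction without a call. Adamts7 changed sign without single arrays (−0.45 to 0.51 over these fits) and with the block without pair 1 (−0.23). The count of genes called, 1705, was 2479 with the block, 730 to 1331 without single arrays, 703 and 806 with the block without pairs 2 and 3, and 545 at an adjusted p under 0.01. The fits without pairs, and without replicate 1 of both groups (1184 genes), were added after the data were seen. Leaving out arrays also leaves fewer degrees of freedom, and the cause of the lower counts was not tested. Dim rows limit what could be seen for Adamts16, Adamts18, Adamts19 and Adamts20, and for the neighbouring gene Cyyr1.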
